A study of Mus musculus with 34 samples.

Results

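The genes described here are 7 Toll-like receptor genes (*Tlr2*, *Tlr3*, *Tlr4*, *Tlr7*, *Tlr8*, *Tlr9* and *Tlr13*), the co-receptor genes *Cd14* and *Ly96*, and the adaptor gene *Myd88*, which were chosen by symbol. Of these 10 genes, 9 were found among the 16389 genes of the expression table, and *Ly96* was not analysed here. RNA was sequenced in 34 libraries from the cortex, the hippocampus and the thalamus, which was dissected together with the striatum, of 12 male C57BL/6 mice, 4 in each of 3 groups. WT CON mice were neither irradiated nor transplanted. GFP-BM CON mice were irradiated with 1000 cGy over the whole body at 4 months of age and received bone marrow from CAG-EGFP donors, in which a ubiquitous promoter drives the green fluorescent protein. GFP-BM REPOP mice were treated in the same way and, 3.5 months later, were fed PLX3397, an inhibitor of the receptor CSF1R on which microglia depend, at 600 ppm for 14 days, followed by 6 months of recovery. The brains of transplanted mice were taken 10 months after the irradiation. Both transplanted groups therefore carry the irradiation and the donor marrow, and only their difference bears on the inhibitor. The groups held 4 libraries in each region, except for 3 in the WT CON cortex and 3 in the GFP-BM CON thalamus.

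Toll-like receptors are pattern recognition receptors of innate immunity that bind molecules of microbes and of damaged cells. TLR2 and TLR4 sit at the cell surface, where CD14 and the protein encoded by *Ly96* help them to bind lipoproteins and lipopolysaccharide, whereas TLR3, TLR7, TLR8, TLR9 and TLR13 sense nucleic acids in endosomes. All of these receptors except TLR3 signal through the adaptor MyD88 to NF-kB and interferon regulatory factors. In the brain, microglia and other macrophages express most of them, and TLR3 is also found in astrocytes and neurons. The libraries are of whole tissue, in which fewer cells of a type and less RNA per cell cannot be told apart.

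The members were expressed at low levels. Values are FPKM, fragments scaled to transcript length and library size, which allow levels of different genes to be compared per length. *Myd88* was the highest of the 9 genes, with a median of 3.10 FPKM over the 34 libraries, followed by *Tlr3* with 2.46 FPKM and *Cd14* with 1.29 FPKM. This order did not hold in each group, since the mean of *Tlr3* exceeded that of *Myd88* in GFP-BM CON mice in the cortex (2.82 against 2.64 FPKM) and the thalamus (3.10 against 2.94 FPKM). The medians of the other genes were 0.884 FPKM for *Tlr2*, 0.729 for *Tlr9*, 0.593 for *Tlr13*, 0.568 for *Tlr7*, 0.256 for *Tlr4* and 0.0888 for *Tlr8*. A level of 1 FPKM was reached by *Myd88* in 34 libraries, by *Tlr3* in 28, by *Cd14* in 26 and by *Tlr2* in 12, but by *Tlr13* in 4, by *Tlr7* and *Tlr9* in 1 each, and by *Tlr4* and *Tlr8* in 0. Genes were tested where they reached 1 FPKM in at least 3 libraries, which left 5 of the members, *Tlr2*, *Tlr3*, *Tlr13*, *Cd14* and *Myd88*, among 14710 genes. *Tlr13* passed only through libraries of GFP-BM REPOP mice, which made up all 4 that reached 1 FPKM, so that a higher level in that group was a condition of its being tested. The reads behind the values were recovered from the steps in the table and came to 17085018 to 26010509 per library. *Tlr8* rested on 0 to 55 reads per library, *Tlr4* on 4 to 45, *Cd14* on 19 to 82 and *Tlr3* on 18 to 320.

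**Figure D1:**
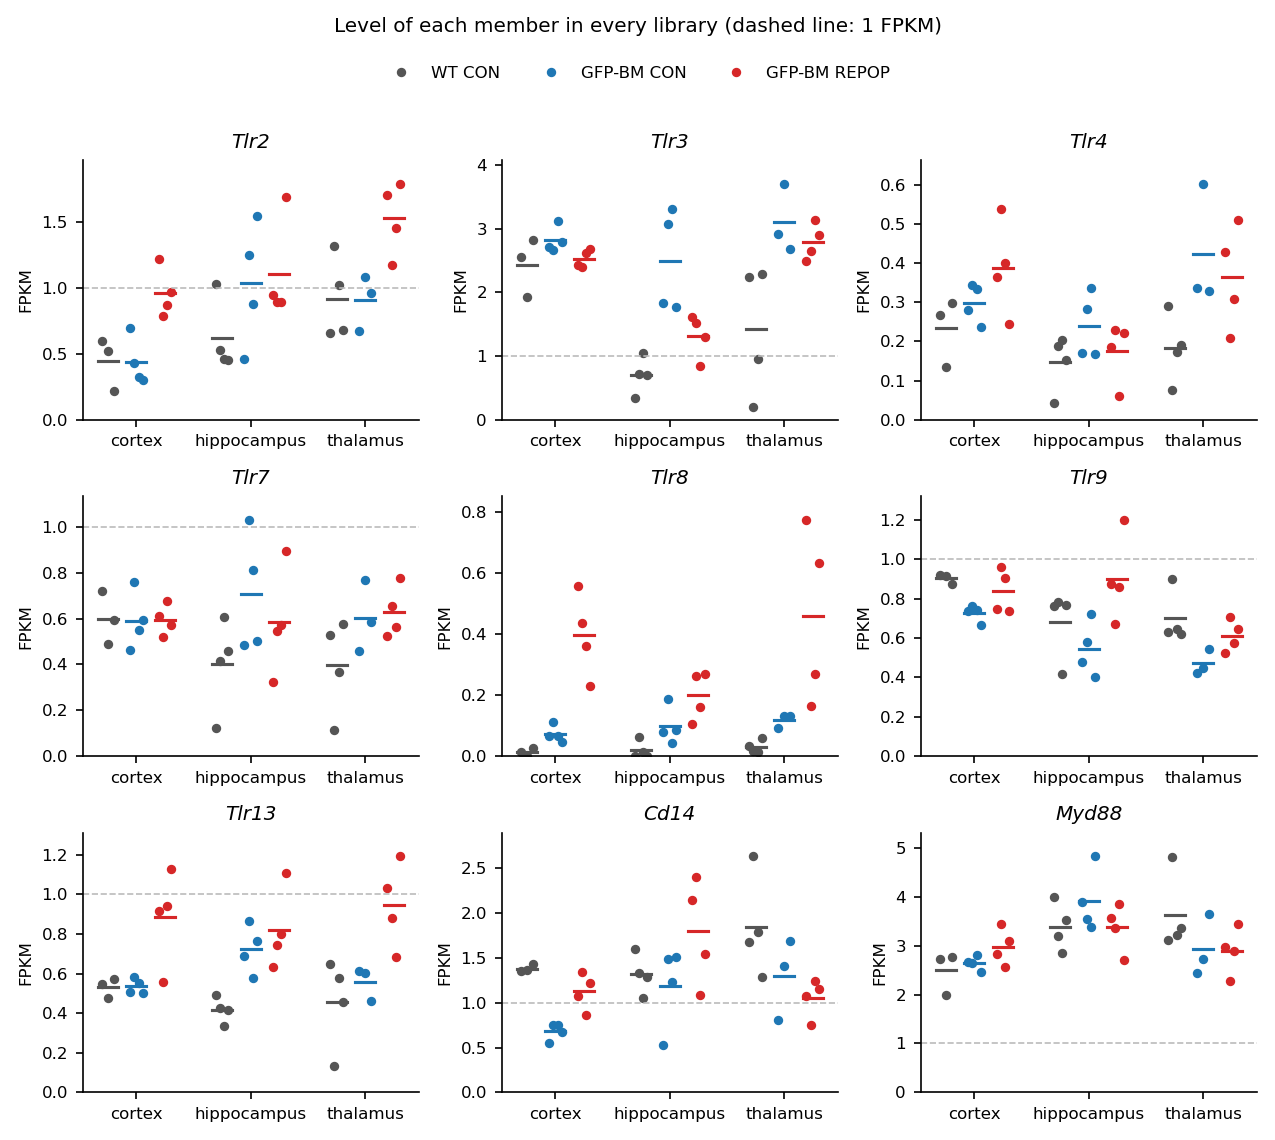
Level of the 9 measured members in FPKM (vertical axes, each from 0) in every library (points) by region and treatment, with the mean of each group as a bar and 1 FPKM as a dashed line where it falls inside the panel. The mean of *Tlr8* was highest in GFP-BM REPOP mice in each region, with libraries up to 0.775 FPKM that overlapped with GFP-BM CON libraries in the hippocampus. *Tlr3* ranged most widely within the WT CON thalamus, from 0.200 to 2.28 FPKM.

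No member passed the test in any of the 9 treatment comparisons. Groups were compared on log2(FPKM + 0.1) by limma-trend, two-sided, with Benjamini-Hochberg adjustment over the 14710 genes, and fold changes are given on that scale, which understates those of low genes. The smallest adjusted p of a member was 0.051, for *Cd14* in the cortex of GFP-BM CON against WT CON mice. At an unadjusted p under 0.05, between 1 and 4 of the 5 members differed in each comparison, and voom on the recovered reads called 0 of the 5 in each. The share of all genes at that unadjusted p is not given here, so the count does not set the members apart.

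In GFP-BM REPOP against WT CON mice, 0 of 5 members were called in the cortex, where 0.734% of all genes were, 0 in the hippocampus, where 0.0136% were, and 0 in the thalamus, where 0.836% were. The libraries of the 2 groups did not overlap for 2 members in the cortex (*Tlr2* higher and *Cd14* lower), for 1 in the hippocampus (*Tlr13* higher) and for 3 in the thalamus (*Tlr3* and *Tlr13* higher and *Cd14* lower). Over all genes tested, the groups did not overlap for 9.48%, 4.00% and 18.8% of genes in these regions. In GFP-BM CON against WT CON mice, 0 of 5 members were called, with 0.320% of all genes called in the cortex and 0% in each of the hippocampus and the thalamus. The groups did not overlap for *Cd14* in the cortex, which was lower, for *Tlr3* and *Tlr13* in the hippocampus and for *Tlr3* in the thalamus, which were higher, against 16.0%, 13.7% and 23.1% of all genes. In GFP-BM REPOP against GFP-BM CON mice, 0 of 5 members were called, with 0.0476% of all genes called in the cortex, 0.0272% in hippocampal and 0% in thalamic libraries. *Tlr2* and *Cd14* in the cortex and *Tlr2* and *Tlr13* in the thalamus were higher without overlap, and *Tlr3* in the hippocampus was lower without overlap, where 3.09%, 4.56% and 6.88% of all genes did not overlap. With 5 members, these counts carry little weight, and comparisons that share a control group are not independent of each other.

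**Figure D2:**
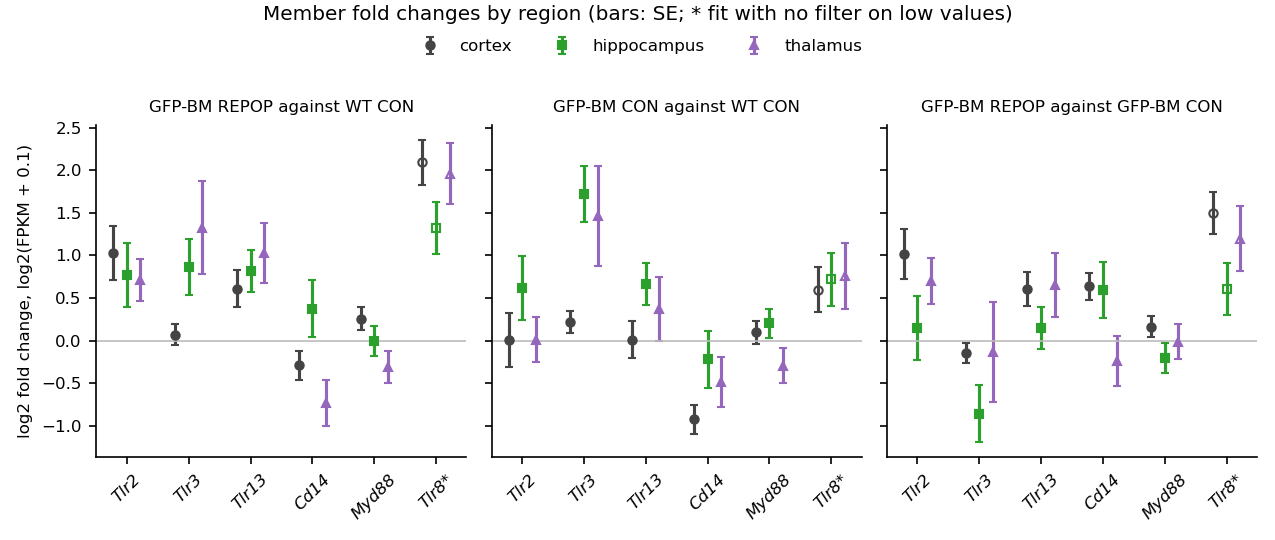
Log2 fold changes on the log2(FPKM + 0.1) scale (vertical axis) of the 5 tested members and of *Tlr8* (open symbols, from the fit with no filter on low values) in the 3 treatment comparisons, for the cortex, hippocampus and thalamus, with SE as bars. *Tlr8* was above 0 in all 9 comparisons, from 0.60 to 2.09, and *Myd88* stayed between -0.31 and 0.26.

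The endosomal receptor TLR8 senses single-stranded RNA. *Tlr8* had the lowest median of the 9 genes over all libraries, but not the lowest mean in GFP-BM REPOP mice, in which *Tlr4* was lower, at 0.387 against 0.397 FPKM in the cortex, 0.175 against 0.200 FPKM in the hippocampus and 0.363 against 0.461 FPKM in the thalamus. It lay higher in GFP-BM REPOP libraries than in those of WT CON mice in each region, without overlap. The study named it as a signature gene of engrafted cells from these same samples, so its pattern is a description and not independent evidence. In the cortex, WT CON libraries held 0.0142, 0 and 0.0260 FPKM, from 1, 0 and 2 reads. GFP-BM CON libraries held 0.0655, 0.113, 0.0652 and 0.0458 FPKM, and GFP-BM REPOP libraries 0.559, 0.436, 0.363 and 0.231 FPKM, from 14 to 34 reads. The 3 groups of the cortex formed 3 separate ranges in that order.

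In the thalamus, *Tlr8* lay between 0.0125 and 0.0582 FPKM in WT CON mice, at 0.0925, 0.131 and 0.133 FPKM in GFP-BM CON mice and at 0.775, 0.164, 0.268 and 0.635 FPKM in GFP-BM REPOP mice. The 3 ranges were again separate, and the lowest GFP-BM REPOP library lay close to the GFP-BM CON libraries. In the hippocampus, WT CON libraries held 0, 0.0616, 0.0138 and 0 FPKM, GFP-BM CON libraries 0.0784, 0.186, 0.0425 and 0.0851 FPKM, and GFP-BM REPOP libraries 0.105, 0.263, 0.162 and 0.269 FPKM. Here GFP-BM CON libraries overlapped with both other groups.

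The ratio of mean FPKM of *Tlr8* in GFP-BM REPOP to that in WT CON mice was 29.6 in the cortex, from 95 and 3 reads (95% exact binomial interval of the ratio of reads per library total 9.53 to 142). It was 10.6 in the hippocampus, from 50 and 5 reads (4.38 to 35.1), and 15.4 in the thalamus, from 130 and 8 reads (7.66 to 36.8). These intervals pool the reads of all mice of a group and cover counting error only. They leave out the spread between mice, such as 11 to 55 reads over the 4 GFP-BM REPOP libraries of the thalamus. Reads of a library are also not independent molecules. *Tlr8* fell under the filter. In the fit with no filter on low values, which tested 16017 genes with limma-trend, its log2 fold change was 2.09 (SE 0.26, adjusted p = 0.0043) in the cortex, 1.32 (SE 0.31, adjusted p = 0.20) in the hippocampus and 1.96 (SE 0.36, adjusted p = 0.042) in the thalamus. In these unfiltered fits, 0.730%, 0.0125% and 1.55% of all genes were called. The call in the cortex held when each library was left out in turn, with an adjusted p of 0.027 or less, whereas that in the thalamus was lost in 9 of 11 such fits, with an adjusted p of up to 0.15, on recovered reads with voom (adjusted p = 0.055) and after the GC and length correction (log2 fold change 1.28, adjusted p = 0.10). Against GFP-BM CON mice, the log2 fold change was 1.50 (SE 0.24, adjusted p = 0.054) in the cortex, 0.60 (SE 0.31, adjusted p = 0.46) in the hippocampus and 1.20 (SE 0.38, adjusted p = 1.00) in the thalamus.

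The sequences before the transcription starts of *Tlr8*, *Tlr13* and *Tlr2* are shown because these were the receptor genes whose mean level was highest in GFP-BM REPOP mice in each region. They are the RefSeq windows of 300 bases on GRCm38.p6, with 250 bases before the start and 50 from it, 5′ to 3′ on the strand of the gene: chrX:167264280-167264579 on the minus strand for *Tlr8*, chrX:106143025-106143324 on the plus strand for *Tlr13* and chr3:83841559-83841858 on the minus strand for *Tlr2*. Capitals mark letters that matched 1 of 3 motifs on either strand, namely AGGAAG, part of the sites bound by the myeloid factor PU.1, GAAA followed by any 2 bases and GAAA, part of interferon-stimulated response elements, and the NF-kB consensus.
Tlr8: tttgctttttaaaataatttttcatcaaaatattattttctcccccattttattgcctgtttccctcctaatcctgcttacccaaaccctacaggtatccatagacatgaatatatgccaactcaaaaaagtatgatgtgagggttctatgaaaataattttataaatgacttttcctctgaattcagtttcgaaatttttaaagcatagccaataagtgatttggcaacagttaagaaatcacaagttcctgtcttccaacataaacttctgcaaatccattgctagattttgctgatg
Tlr13: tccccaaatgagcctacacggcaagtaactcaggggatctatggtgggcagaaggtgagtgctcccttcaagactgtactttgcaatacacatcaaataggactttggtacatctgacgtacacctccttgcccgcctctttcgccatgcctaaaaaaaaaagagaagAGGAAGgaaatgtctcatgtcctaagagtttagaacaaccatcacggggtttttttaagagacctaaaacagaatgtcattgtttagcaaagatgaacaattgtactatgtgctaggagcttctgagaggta
Tlr2: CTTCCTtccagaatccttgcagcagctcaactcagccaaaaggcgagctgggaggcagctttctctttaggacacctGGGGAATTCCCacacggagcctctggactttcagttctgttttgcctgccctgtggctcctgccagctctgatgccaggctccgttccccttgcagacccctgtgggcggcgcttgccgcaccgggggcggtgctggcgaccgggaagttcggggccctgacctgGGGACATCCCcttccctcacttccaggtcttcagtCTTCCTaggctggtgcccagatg

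The window of *Tlr2* held AGGAAG at 2 places and the NF-kB consensus 4 times over both strands, of which some overlapped. That of *Tlr13* held AGGAAG once, and that of *Tlr8* held 0 matches to the 3 motifs. Of 32851 promoter windows of the same length, 35.4% held AGGAAG, 3.44% the interferon motif and 4.51% the NF-kB consensus. These matches describe the letters only. Of the 3 further windows matched for members, that of *Tlr3* held 1 NF-kB consensus, that of *Tlr9* held AGGAAG at 2 places, and that of *Myd88* held the interferon motif once.

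TLR13 senses bacterial ribosomal RNA in endosomes. *Tlr13* measured 0.548, 0.476 and 0.573 FPKM in the cortex of WT CON mice, 0.505, 0.582, 0.551 and 0.504 FPKM in GFP-BM CON mice and 0.918, 0.558, 0.943 and 1.13 FPKM in GFP-BM REPOP mice. In the thalamus the values were 0.651, 0.132, 0.579 and 0.458 FPKM in WT CON mice, 0.613, 0.603 and 0.461 FPKM in GFP-BM CON mice and 1.03, 0.879, 0.686 and 1.19 FPKM in GFP-BM REPOP mice. Of the cortex libraries, 1 of GFP-BM REPOP mice lay within the range of the other groups, whereas in the thalamus all 4 lay above both. In the hippocampus, WT CON libraries held 0.338 to 0.491 FPKM, and the GFP-BM CON libraries, at 0.580 to 0.867 FPKM, overlapped with those of GFP-BM REPOP mice, at 0.633 to 1.11 FPKM.

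The log2 fold changes of *Tlr13* in GFP-BM REPOP against WT CON mice were 0.61 (SE 0.22, adjusted p = 0.25) in the cortex, 0.81 (SE 0.25, adjusted p = 0.37) in the hippocampus and 1.02 (SE 0.35, adjusted p = 0.14) in the thalamus. Without WT CON replicate 2, the lowest library, the difference in the thalamus was 0.65 (SE 0.23, adjusted p = 0.12). The order of group means ran from 0.947 FPKM in the GFP-BM REPOP thalamus and 0.887 FPKM in the GFP-BM REPOP cortex, whose libraries overlapped, to 0.418 FPKM in the WT CON hippocampus. When all 9 groups shared one fit, the call in the thalamus passed (adjusted p = 0.013), and the filter noted above bears on that value too.

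TLR2 binds bacterial lipoproteins at the cell surface as a pair with TLR1 or TLR6. In the cortex, *Tlr2* was higher in GFP-BM REPOP mice, at 1.22, 0.785, 0.872 and 0.967 FPKM, than in WT CON mice, at 0.597, 0.517 and 0.216 FPKM, and in GFP-BM CON mice, at 0.696, 0.427, 0.324 and 0.304 FPKM. The GFP-BM REPOP libraries lay above all others of the cortex, and the other 2 groups overlapped. The log2 fold change was 1.03 (SE 0.32, adjusted p = 0.20) against WT CON and 1.02 (SE 0.29, adjusted p = 0.67) against GFP-BM CON mice. Without WT CON replicate 3, the lowest library, the first of these was 0.68 (SE 0.30, adjusted p = 0.32). The libraries did not overlap, but neither difference passed the adjustment over all genes.

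In the thalamus, *Tlr2* measured 1.70, 1.17, 1.45 and 1.79 FPKM in GFP-BM REPOP mice, 0.653, 1.31, 1.02 and 0.676 FPKM in WT CON mice and 0.672, 1.08 and 0.957 FPKM in GFP-BM CON mice. GFP-BM REPOP libraries lay above those of GFP-BM CON mice and overlapped with those of WT CON mice through 1 library, WT CON replicate 2. The log2 fold change against WT CON mice was 0.71 (SE 0.25, adjusted p = 0.15), and it was 0.94 (SE 0.20, adjusted p = 0.048) when each library was corrected for GC content and transcript length, a correction that moved the median log2 fold change of all genes from -0.05 to 0.12. In the hippocampus, 1.03, 0.528, 0.460 and 0.449 FPKM were found in WT CON mice, 0.463, 1.25, 0.878 and 1.54 FPKM in GFP-BM CON mice and 0.948, 0.891, 0.895 and 1.69 FPKM in GFP-BM REPOP mice. All 3 groups overlapped there. The 9 group means of *Tlr2* ran from 1.53 ± 0.277 FPKM (SD, n = 4) in the GFP-BM REPOP thalamus to 0.438 ± 0.180 FPKM (SD, n = 4) in the GFP-BM CON cortex.

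TLR4, with CD14 and the product of *Ly96*, is the receptor for lipopolysaccharide. *Tlr4* stayed at 0.0436 to 0.603 FPKM in all libraries, and its unfiltered log2 fold changes ranged from -0.33 to 0.90 with adjusted p of 0.19 or more. The largest was that of GFP-BM CON against WT CON mice in the thalamus, where 0.336, 0.603 and 0.328 FPKM lay above 0.291, 0.0749, 0.174 and 0.191 FPKM (log2 fold change 0.90, SE 0.33, adjusted p = 0.20). After correction for GC content and transcript length it was 0.04 (SE 0.30, adjusted p = 0.94).

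The protein of *Cd14* hands lipopolysaccharide on to TLR4. In the cortex, 1.35, 1.36 and 1.43 FPKM were measured in WT CON mice, 0.553, 0.747, 0.756 and 0.676 FPKM in GFP-BM CON mice and 1.07, 1.34, 0.865 and 1.22 FPKM in GFP-BM REPOP mice. The 3 groups did not overlap, with GFP-BM REPOP libraries between the other groups. The gap to WT CON mice was very small, with the highest GFP-BM REPOP library at 1.343 FPKM and the lowest WT CON library at 1.348 FPKM. The log2 fold change of GFP-BM CON against WT CON mice was -0.93 (SE 0.17, adjusted p = 0.051), just outside the threshold. It passed in other fits of the same libraries: without the filter (adjusted p = 0.047), with a pseudocount of 1 (adjusted p = 0.046), with median-ratio scaling (adjusted p = 0.048), with quantile normalization (adjusted p = 0.038), after the GC and length correction (adjusted p = 0.048) and over the genes with a GC content alone (adjusted p = 0.048). It did not pass with voom (adjusted p = 0.059), with a stricter filter (adjusted p = 0.060), with a pseudocount of 0.01 (adjusted p = 0.053), with the 2 groups alone (adjusted p = 0.056) or in the fit that all 9 groups shared (adjusted p = 0.76). GFP-BM REPOP mice were higher than GFP-BM CON mice by 0.64 on the log2 scale (SE 0.16, adjusted p = 0.42).

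In the thalamus, *Cd14* measured 1.67, 2.63, 1.79 and 1.29 FPKM in WT CON mice, 0.808, 1.41 and 1.69 FPKM in GFP-BM CON mice and 1.07, 0.754, 1.25 and 1.16 FPKM in GFP-BM REPOP mice. The WT CON libraries lay above those of GFP-BM REPOP mice, by a small gap, and overlapped with GFP-BM CON mice (log2 fold change of GFP-BM REPOP against WT CON -0.73, SE 0.27, adjusted p = 0.16). In the hippocampus the groups overlapped, at 1.05 to 1.60 FPKM in WT CON, 0.524 to 1.51 FPKM in GFP-BM CON and 1.09 to 2.40 FPKM in GFP-BM REPOP mice. *Csf1r*, a gene of all brain macrophages, fell as well in the cortex of GFP-BM CON against WT CON mice, by 0.74 on the log2 scale (SE 0.07, adjusted p = 0.0022). It was the only 1 called of 11 tested genes of a list of 12 that all brain macrophages express, and the mean log2 level of the 12 was lower by 0.17. Relative to that mean, *Cd14* was lower by 0.75, without overlap, and relative to *Csf1r* and *Aif1* alone by 0.54, without overlap.

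TLR3 senses double-stranded RNA and signals through TRIF rather than MyD88. *Tlr3* measured 0.339, 0.719, 1.04 and 0.707 FPKM in the hippocampus of WT CON mice, 1.83, 3.07, 3.30 and 1.78 FPKM in GFP-BM CON mice and 1.61, 1.52, 0.838 and 1.30 FPKM in GFP-BM REPOP mice. GFP-BM CON libraries lay above both other groups, which overlapped with each other. In the thalamus, 2.24, 0.200, 0.946 and 2.28 FPKM were measured in WT CON mice, 2.91, 3.70 and 2.67 FPKM in GFP-BM CON mice and 2.5, 2.65, 3.13 and 2.90 FPKM in GFP-BM REPOP mice. Cortical levels of 1.93 to 2.83 FPKM in WT CON, 2.67 to 3.12 FPKM in GFP-BM CON and 2.40 to 2.67 FPKM in GFP-BM REPOP mice overlapped.

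The log2 fold change of *Tlr3* in GFP-BM CON against WT CON mice was 1.72 (SE 0.33, adjusted p = 0.071) in the hippocampus and 1.46 (SE 0.59, adjusted p = 0.22) in the thalamus, and in GFP-BM REPOP against WT CON mice it was 0.86 (SE 0.33, adjusted p = 0.47) and 1.33 (SE 0.55, adjusted p = 0.18). After the correction for GC content and length, these became 1.06 (SE 0.22, adjusted p = 0.053), 0.63 (SE 0.36, adjusted p = 0.27), 0.50 (SE 0.22, adjusted p = 0.40) and 0.56 (SE 0.33, adjusted p = 0.27). Without WT CON replicate 2, the lowest library of the thalamus, the differences of the thalamus were 0.81 and 0.68 on the log2 scale. When all 9 groups shared one fit, the hippocampal comparison (adjusted p = 0.0064) and both of the thalamus (adjusted p = 0.030 and 0.027) passed.

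The GC measure of a library, the median log2 level of the tenth of the genes richest in GC minus that of the tenth poorest in GC, ran from 0.411 to 3.65. It was 1.09 to 3.65 in the WT CON thalamus against 0.453 to 0.827 in GFP-BM CON and 0.506 to 0.938 in GFP-BM REPOP mice, and 1.75 to 3.39 in the WT CON hippocampus against 0.714 to 2.08 and 1.46 to 2.60. In the cortex it was 0.753 to 1.24, 0.430 to 0.583 and 0.411 to 0.994. *Tlr3*, *Tlr4*, *Tlr7* and *Tlr8* transcripts hold 40.0%, 39.4%, 41.0% and 40.1% GC, close to or below the 10th percentile of the genes tested (41.5%). Over the 34 libraries, with the mean of each region removed, Pearson's r with the GC measure was -0.94 for *Tlr3*, -0.81 for *Tlr7*, -0.77 for *Tlr4*, -0.58 for *Tlr13* and -0.41 for *Tlr8*, which is as poor in GC as *Tlr3*. It was -0.04 for *Tlr2*, 0.40 for *Tlr9*, 0.43 for *Cd14* and 0.48 for *Myd88*. These are descriptions of libraries that share animals, regions and normalization. *Tlr13*, whose transcript holds 43.6% GC, was lowest, at 0.132 FPKM, in WT CON replicate 2 of the thalamus, the library with the highest GC measure. The part of the GC measure in the differences of *Tlr3*, *Tlr4*, *Tlr7*, *Tlr8* and *Tlr13* was not tested beyond the corrected fit.

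**Figure D3:**
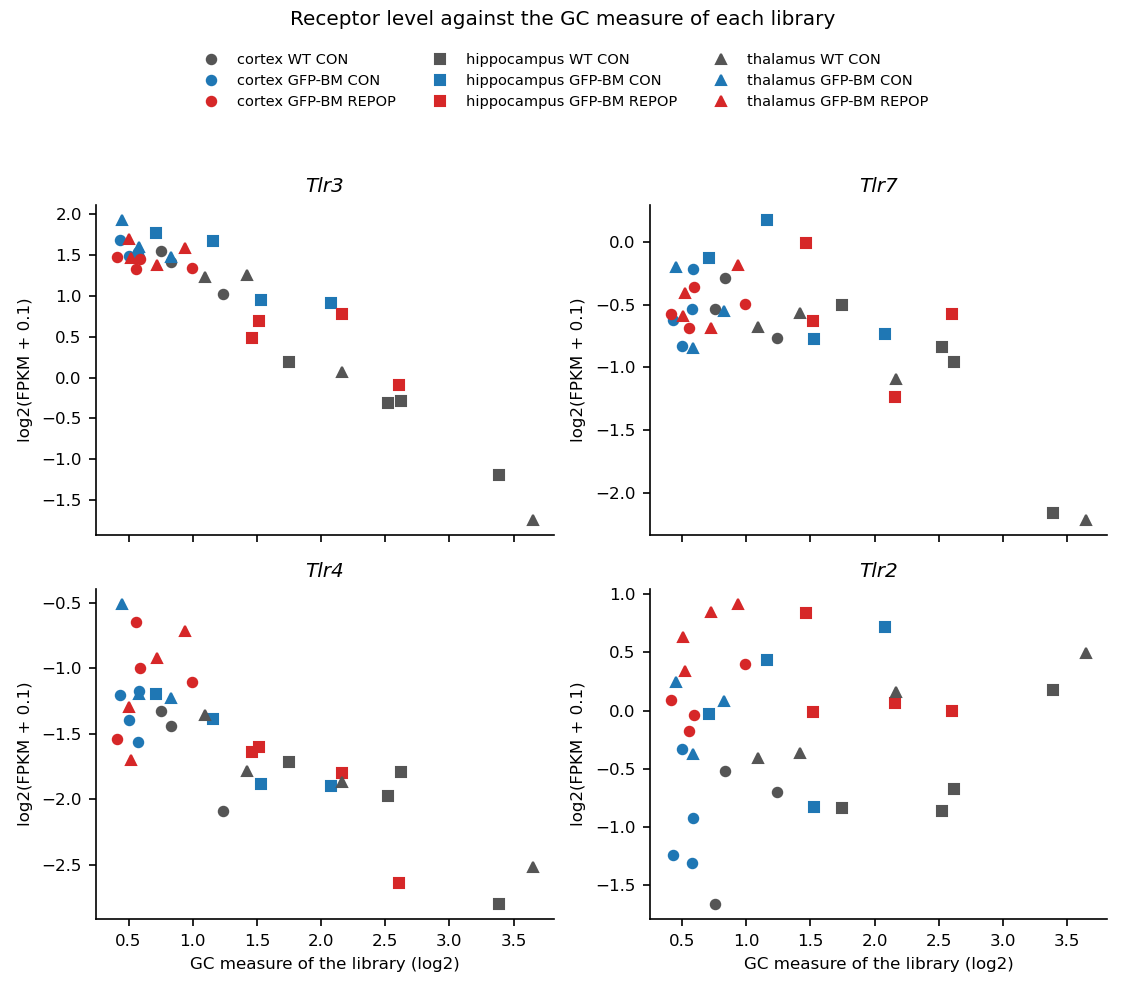
Level of *Tlr3*, *Tlr7*, *Tlr4* and *Tlr2* as log2(FPKM + 0.1) (vertical axes) against the GC measure of each library (horizontal axes, log2), with regions as symbols and treatments as colours. Libraries with a higher GC measure had less *Tlr3* (r = -0.94, 34 libraries, region means removed), and those of the WT CON hippocampus and thalamus reached the highest measures, 3.39 and 3.65.

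TLR7 and TLR9 sense single-stranded RNA and unmethylated DNA in endosomes. *Tlr7*, which neighbours *Tlr8* on the X chromosome, held 0.115 to 1.03 FPKM, and its group means ran from 0.397 FPKM in the WT CON thalamus to 0.707 FPKM in the GFP-BM CON hippocampus. In the cortex, its group means were 0.599 ± 0.116 (n = 3), 0.591 ± 0.124 (n = 4) and 0.595 ± 0.0661 (n = 4) FPKM (SD) in WT CON mice, in GFP-BM CON mice and in GFP-BM REPOP mice. Its unfiltered adjusted p was 0.23 or more in all 9 comparisons. *Tlr9* was lower in GFP-BM CON mice than in WT CON mice without overlap in the cortex (0.739, 0.761, 0.741 and 0.666 against 0.917, 0.914 and 0.875 FPKM) and in the thalamus (0.421, 0.445 and 0.545 against 0.630, 0.899, 0.646 and 0.622 FPKM). The unfiltered log2 fold changes were -0.28 (SE 0.14, adjusted p = 0.38) and -0.48 (SE 0.19, adjusted p = 0.21), so that these differences did not pass. After the GC and length correction, that of the thalamus was -0.09 (SE 0.16, adjusted p = 0.73).

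MyD88 is the adaptor shared by the receptors other than TLR3. *Myd88* was the most evenly expressed member, at 1.98 to 4.82 FPKM in all libraries. In the cortex it measured 2.49 ± 0.440 (n = 3), 2.64 ± 0.146 (n = 4) and 2.98 ± 0.373 (n = 4) FPKM (SD) in WT CON mice, in GFP-BM CON mice and in GFP-BM REPOP mice, and in the thalamus 3.62 ± 0.800 (n = 4), 2.94 ± 0.631 (n = 3) and 2.89 ± 0.482 (n = 4) FPKM. Its log2 fold changes in the 9 comparisons lay between -0.31 and 0.26, with adjusted p of 0.28 or more, and its groups overlapped in each.

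Regions were compared within WT CON mice in 1 model of the 9 groups, in which the libraries of an animal formed a random block. *Tlr3* was higher in the cortex than in the hippocampus, by 1.72 on the log2 scale (SE 0.43, adjusted p = 0.0034). It was the only 1 of 5 members called, where 36.9% of all genes were called. In the thalamus against the cortex, 3 of 5 members were called against 30.0% of all genes. *Tlr2* (0.94, SE 0.35, adjusted p = 0.045) and *Myd88* (0.52, SE 0.18, adjusted p = 0.031) were higher in the thalamus and *Tlr3* (-1.12, SE 0.43, adjusted p = 0.049) was lower. Between the thalamus and the hippocampus, 0 of 5 members were called, against 17.7% of all genes; an unadjusted p was 0.12 or more for each member. Without the thalamus library of WT CON replicate 2, or without the cortex library of WT CON replicate 2, 0 members were called between the thalamus and the cortex. The order of the regions for *Tlr3* was the reverse of that of their mean GC measure, 0.941 in the cortex, 2.08 in the thalamus and 2.57 in the hippocampus. The fit of regions was not corrected for GC content. Region and GC measure cannot be told apart here, and the part of the GC measure in these differences was not tested.

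The treatment effects were compared between regions as contrasts of contrasts in the same fit. The adjusted p of the 5 members in these 9 contrasts ran from 0.39 to 1.00. The smallest was that of *Cd14* in GFP-BM REPOP against WT CON mice, whose log2 fold change was lower in the thalamus than in the hippocampus by 1.10 (SE 0.39, adjusted p = 0.39). A difference between regions in the response of a member was therefore not shown.

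Levels were also expressed relative to 12 genes that brain macrophages of any origin express, including *Csf1r*, *Aif1*, *Ptprc*, *Spi1*, *Tyrobp* and *C1qa*, as the log2 level of the member minus the mean log2 level of the 12. The mean of the reference itself differed by 0.05, 0.15 and 0.01 on the log2 scale (GFP-BM REPOP minus WT CON; cortex, hippocampus and thalamus). Relative to it, *Tlr8* was higher in GFP-BM REPOP mice than in WT CON mice by 2.05, 1.18 and 1.95, without overlap in any region. *Tlr2* was higher by 0.98, 0.62 and 0.71, without overlap in the cortex and the thalamus, and *Tlr13* by 0.56, 0.67 and 1.01, without overlap in the cortex and the hippocampus. *Cd14* was lower by 0.34 in the cortex and by 0.74 in the thalamus, without overlap in the latter, and higher by 0.23 in the hippocampus. Of the 11 tested genes of the reference, 1 was called lower in the cortex in this comparison (limma-trend, adjusted p = 0.021). The mean of *Csf1r* and *Aif1* alone differed by -0.13, 0.00 and -0.24 in the same regions. With these 2 genes as the reference, each of these differences of *Tlr2*, *Tlr8* and *Tlr13* kept its sign, from 0.74 to 2.22. That of *Tlr2* in the thalamus moved from 0.71 to 0.96. *Cd14* was then lower by 0.48 in the thalamus, where the groups overlapped, and by 0.16 in the cortex.

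**Figure D4:**
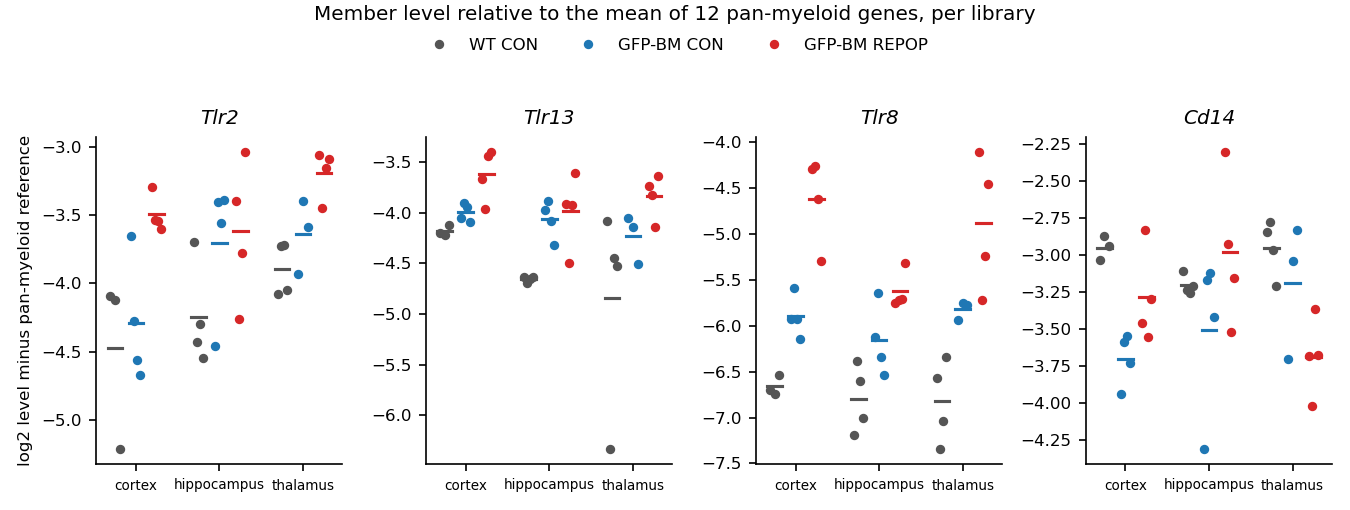
Log2 level of *Tlr2*, *Tlr13*, *Tlr8* and *Cd14* minus the mean log2 level of 12 pan-myeloid genes (vertical axes) in every library by region and treatment, with group means as bars. *Tlr8* in GFP-BM REPOP libraries lay above all WT CON libraries of its region, with mean differences of 2.05, 1.18 and 1.95 in the cortex, hippocampus and thalamus.

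Markers of some cell types differed between the groups, and those of others did not. A list of 10 genes was taken from those that the study named for engrafted cells on these samples, and all were measured. Of its signature, *Tlr8*, *AU020206*, *Tmem221*, *Nnt* and *Wdfy1* were left out, and *Clec7a* was added from a co-expression module of the study. The summed level of the 10 was 8.68 to 10.4 FPKM in the WT CON cortex. It was 13.8 to 22.5 FPKM in GFP-BM CON and 65.3 to 105 FPKM in GFP-BM REPOP mice. In the thalamus these sums were 15.2 to 32.1, 40.0 to 53.1 and 114 to 199 FPKM, and in the hippocampus 10.8 to 24.5, 15.7 to 75.6 and 51.5 to 141 FPKM. The sum of 12 microglial genes, of 12 listed, was 109 to 129, 97.5 to 107 and 79.6 to 91.4 FPKM in the cortex of the 3 groups in that order. In the thalamus it was 110 to 163, 101 to 104 and 97.4 to 100 FPKM. In the hippocampus the groups overlapped, at 122 to 164, 111.5 to 138 and 93.5 to 126 FPKM. Sums of astrocyte genes overlapped in the cortex, at 930 to 996, 903 to 992 and 922 to 991 FPKM in the same order. Of 6 listed genes of border macrophages, 5 were measured. They summed to 1.29 to 6.75 FPKM in the WT CON cortex and 2.53 to 16.4 FPKM in GFP-BM REPOP mice. Of 6 blood monocyte genes only 1, *Vcan*, was measured. In the cortex it held 0.5885 to 1.23 FPKM in WT CON, 1.19 to 1.43 in GFP-BM CON and 0.862 to 1.37 in GFP-BM REPOP mice. Of 7 neutrophil genes, 2 were measured. They summed to 0.757 to 1.06, 0.105 to 0.921 and 0.235 to 0.747 FPKM in these groups. So few genes do not give a level of blood monocytes or neutrophils. No listed gene of these sets was at 0 in all libraries of a group. The part of these cells in the levels of *Tlr2*, *Tlr8* and *Tlr13* was not tested. Genes typical of the cortex summed to 168 to 219 FPKM in cortex libraries, but to 104 to 211 FPKM in the hippocampus of GFP-BM REPOP mice against 67.7 to 83.5 FPKM in that of WT CON mice. Choroid plexus genes ran from 33.9 to 6511 FPKM within the WT CON hippocampus. In the cortex they summed to 415 to 457 FPKM in WT CON, 51.6 to 413 FPKM in GFP-BM CON and 54.7 to 372 FPKM in GFP-BM REPOP mice. Striatal genes ran from 140.5 to 645 FPKM within the WT CON thalamus. Values of the members in each region therefore come from dissections that differ in make-up. The part of dissection in the differences of the members was not tested.

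Genes of the pathway around these receptors were read from lists of further receptors, chaperones, adaptors, NF-kB and interferon regulatory factor arms and inducible targets. Of these, 43 genes were tested, and limma-trend called 0 in each of the 9 comparisons, as did voom on the recovered reads. At an unadjusted p under 0.05, between 0 and 6 of the 43 were higher and between 0 and 5 lower. These counts too stand without the share of all genes and do not set the pathway apart. Their median log2 fold change in GFP-BM REPOP against WT CON mice was -0.01, 0.00 and 0.00 in the 3 regions (cortex, hippocampus, thalamus), beside 0.02, 0.00 and -0.05 for all genes. Groups did not overlap for 9.30%, 0% and 18.6% of the 43 genes in these regions.

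Among chaperones and trafficking proteins, *Unc93b1*, which carries the nucleic acid receptors to endosomes, was higher in the cortex of GFP-BM REPOP than of GFP-BM CON mice, at 7.43 ± 0.968 (SD, n = 4) against 5.52 ± 0.367 FPKM (SD, n = 4; log2 fold change 0.41, SE 0.09, adjusted p = 0.27). *Slc15a3*, an endolysosomal transporter of histidine and bacterial peptides, measured 1.33 ± 0.115 (n = 4) against 0.932 ± 0.0967 (n = 3) FPKM (SD) in the thalamus of the same groups (adjusted p = 1.00). *Cd180*, a Toll-like receptor homologue of the cell surface, measured 0.705 ± 0.0823 (n = 4) in the cortex of GFP-BM REPOP and 0.908 ± 0.0560 (n = 3) FPKM (SD) in that of WT CON mice (adjusted p = 0.39). None of these 3 differences passed.

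Among adaptors, *Pik3ap1*, which links receptors to phosphoinositide 3-kinase, measured 1.10 ± 0.171 (n = 4) against 0.802 ± 0.0551 (n = 3) FPKM (SD) in the cortex of GFP-BM REPOP against WT CON mice (adjusted p = 0.46). *Traf3*, a ubiquitin ligase of the interferon arm, measured 8.61 ± 0.897 against 14.2 ± 0.594 FPKM (SD, n = 4 each) in the hippocampus of GFP-BM REPOP against GFP-BM CON mice (log2 fold change -0.72, SE 0.21, adjusted p = 0.26). *Tab3*, of the TAK1 kinase complex, and *Chuk*, which encodes the kinase IKK alpha, were higher in the thalamus of GFP-BM REPOP than of WT CON mice, at 4.04 ± 0.412 against 1.86 ± 1.31 FPKM and at 11.1 ± 0.988 against 5.51 ± 3.19 FPKM (SD, n = 4 each), with adjusted p of 0.15 and 0.12. They also lay higher in GFP-BM CON mice (adjusted p = 0.20 and 0.15), and *Tab3* in the cortex too, at 4.90 ± 0.173 (n = 4) against 3.84 ± 0.773 (n = 3) FPKM (SD, adjusted p = 0.20). Both transcripts hold little GC, 41.5% and 41.3%. The part of base composition in the differences of *Tab3* and *Chuk* was not tested.

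Among the transcription factors, *Irf8*, an interferon regulatory factor of the myeloid lineage, measured 1.36 ± 0.109 (n = 4) against 1.69 ± 0.0196 (n = 3) FPKM (SD) in the cortex of GFP-BM CON and WT CON mice (adjusted p = 0.27) and 1.95 ± 0.276 (n = 4) against 1.43 ± 0.123 (n = 3) FPKM in the thalamus of GFP-BM REPOP against GFP-BM CON mice (adjusted p = 1.00). *Irf5*, which acts after MyD88, measured 1.51 ± 0.105 against 1.21 ± 0.174 FPKM (SD, n = 4 each) in the cortex of GFP-BM REPOP against GFP-BM CON mice (adjusted p = 1.00). Of 18 inducible targets, 5 were in the table and only *Ptgs2*, the inducible cyclooxygenase, was tested. It measured 1.33 ± 0.523 against 4.57 ± 1.09 FPKM (SD, n = 4 each) in the hippocampus of GFP-BM REPOP against GFP-BM CON mice, without overlap (log2 fold change -1.75, SE 0.60, adjusted p = 0.32). The *Ptgs2* transcript also holds little GC, 40.0%. The mean GC measure of these hippocampal groups was 1.94 in GFP-BM REPOP and 1.37 in GFP-BM CON mice. Their choroid plexus genes summed to means of 203.2 and 3118 FPKM. The part of base composition or dissection in this difference was not tested. The targets *Cxcl10*, *Nos2*, *Cd40* and *Cd86* had medians of 0.390, 0.176, 0.323 and 0.696 FPKM, and *Tlr1* and *Tlr12*, the further receptors of the table, 0.286 and 0.293 FPKM, with unfiltered adjusted p of 0.13 or more for each of these 6 genes.

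The tested genes whose pattern was most like that of a member were named by Pearson's r over the 34 libraries on the log2(FPKM + 0.1) scale, with region means removed. For *Tlr2* they were *Ctsc* (r = 0.81), *Adgre1* (0.80) and *Lyz2* (0.79), for *Tlr13* *Cyp4f18* (0.84), *Apobec1* (0.83) and *Fyb* (0.82), and for *Tlr3* *D3Ertd254e*, *Mindy2* and *Elovl6* (each 0.97). For *Cd14*, *Amhr2*, *Mrpl27* and *Marc2* reached 0.66 to 0.67, and for *Myd88*, *Dhrs4*, *Lman2* and *Gpr137* reached 0.73 to 0.75. *Tlr8* and *Tlr13* had r = 0.73 with each other and *Tlr2* and *Tlr8* 0.67. These libraries share animals, groups and base composition, and the values are descriptions.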

How the data were processed

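RNA of 34 libraries was analysed from 1 table of FPKM values on a linear scale that the authors deposited. The authors sequenced pairs on NovaSeq and HiSeq instruments (which library on which is not given in the sources used here), aligned with STAR, counted with featureCounts and normalized with edgeR and limma, per the labels on mm10. FPKM is relative to library size and length, so that a few abundant genes or base composition of a library can shift low genes. Reads were recovered from the steps of the values, of which 100.0% came out whole within 0.01 of a read.

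Groups came from the labels. Genes at 1 FPKM in at least 3 libraries were tested (14710 of 16389, after 343 of other biotypes were left out) on log2(FPKM + 0.1) with limma 3.58.1 in R 4.3.3 (limma-trend, 1 fit per region, 3 groups, Benjamini-Hochberg threshold 0.05). Regions of 1 animal were compared with the animal as a random block (correlation -0.04). Steps were tested on simulated data. Each group of a region held 3 or 4 libraries, each from 1 mouse. The p-values rest on the spread between libraries within groups, pooled over the groups of a fit and moderated by limma across genes. GC content and length came from the longest transcripts of the reference annotation (GRCm38) for 94.3% of the genes tested, and the correction used splines with 5 degrees of freedom. Promoters came from RefSeq.

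The named genes were all members, genes of the pathway lists that passed, the 2 largest differences without overlap from those lists in each comparison, and the 3 genes most like each tested member. The members and lists were chosen with earlier results of these data known. Alternatives were a pseudocount of 1 or 0.01, other filters, median-ratio scaling, quantile normalization, other fits, voom, the GC correction, the replicate number as a block and leaving out each library.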

Additional observations from a re-analysis of the deposited data

Results flagged for a closer look

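In groups of 4 libraries, a library was marked where its gap to the nearest other as a share of the range of the group exceeded Dixon's 95% critical value, which chance exceeds in about 1 in 20 groups. Of 63 groups over the 9 members, 5 had such a library. *Tlr2* stood at 1.03 FPKM in WT CON replicate 1 of the hippocampus, against 0.449 to 0.528 FPKM in the other libraries, and at 1.69 FPKM in GFP-BM REPOP replicate 4 of the hippocampus, against 0.891 to 0.948 FPKM. *Tlr9* stood at 0.416 FPKM in WT CON replicate 3 of the hippocampus, against 0.762 to 0.784 FPKM, and at 0.899 FPKM in WT CON replicate 2 of the thalamus, against 0.622 to 0.647 FPKM. *Myd88* stood at 4.81 FPKM in the same thalamus library, against 3.11 to 3.35 FPKM. That library and WT CON replicate 1 of the hippocampus had the highest GC measures, 3.65 and 3.39.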

How the results depend on the processing

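All 534 alternative values of 36 log2 differences of members kept their sign. These were a chosen set. Treatment fold changes of the tested members were taken up only where limma-trend gave an unadjusted p under 0.05, which held for 17. The others were those of *Tlr8* in GFP-BM REPOP mice, the region differences called in WT CON mice, and levels relative to the macrophage reference. Differences chosen for their size seldom change sign, so this count says little about the stability of the members. The count of members called, 0 in each treatment comparison, became 1 for GFP-BM CON against WT CON in the cortex (*Cd14*) with no filter, with and without the GC correction, with genes of known GC content, a pseudocount of 1, median-ratio scaling or quantile normalization, became 1 in the hippocampus and in the thalamus (*Tlr3*) with all 9 groups in one fit, and became 1 for GFP-BM REPOP against WT CON in the cortex (*Tlr8*) with no filter, alone or with voom or the GC correction. In the thalamus of the last comparison it became 2 (*Tlr3* and *Tlr13*) with all 9 groups in one fit, 1 (*Tlr2*) with the GC correction, with or without the filter, and 1 (*Tlr8*) with no filter. When 1 library was left out, the count ran from 0 to 1 for GFP-BM CON against WT CON in the cortex and the hippocampus and stayed at 0 in the other comparisons. It was 1 without GFP-BM REPOP replicate 1 in the cortex, and without GFP-BM CON replicate 4 or WT CON replicate 3 in the hippocampus. Between regions of WT CON mice it ran from 1 to 2, from 0 to 3 and from 0 to 1 for the cortex against the hippocampus, the thalamus against the cortex and the thalamus against the hippocampus. The cause of these changes was not tested.

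With the replicate number as a replicate block, 0 members were called in each comparison, and over all genes 36, 0 and 11 were called where 108, 47 and 123 were without it (GFP-BM REPOP and GFP-BM CON against WT CON in the cortex, and GFP-BM REPOP against WT CON in the thalamus). The deviations of same-numbered libraries had correlations from -0.43 to 0.49, so the numbers do not pair the mice. Over all genes, the 9-group fit called 2849 and 1347 for GFP-BM CON against WT CON in the hippocampus and thalamus, where the fit per region called 0, and 1954 and 411 for GFP-BM REPOP against WT CON in the thalamus and hippocampus, where it called 123 and 2. In the hippocampus it called 665 between the transplanted groups, where the fit per region called 4, and 27, 0 and 6 in the cortex, where that fit called 108, 47 and 7. The GC correction called 190, 129 and 17 in those cortical comparisons, 301 for GFP-BM REPOP against WT CON in the thalamus, and 36 for GFP-BM CON against WT CON in the hippocampus. In the thalamus, voom called 48 and quantile normalization 496 where 123 were called, and leaving out 1 thalamus library moved the 123 to between 12 and 1788. Leaving out 1 library also moved the counts for GFP-BM CON against WT CON, from 0 to as many as 963 (hippocampus) or 1179 (thalamus) and from 47 to between 6 and 230 in the cortex, and the 108 for GFP-BM REPOP against WT CON in the cortex to between 53 and 242, and the shares of all genes given as background move with these counts. The alternatives that combine no filter with another choice, and the genes of known GC content, were chosen after seeing the data. Depth limits *Tlr4* and *Tlr8*, which rest on at most 45 and 55 reads per library.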
